A study of Helianthus annuus with 15 samples.

Results

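Sunflower (Helianthus annuus) genes that were expressed in all 4 shoot tissues sampled and were close to silent in root are described here across 15 mRNA libraries. The libraries came from axil, flower, leaf, stem and root, with 3 libraries per tissue, and tissue is all that the labels give of each group. No strain, treatment, age or number of plants is stated in them. Side shoots arise from buds in the axil, the corner formed where a leaf joins its stem. Nothing in the labels tells whether libraries of the same tissue come from different plants, and p-values therefore reflect library-to-library spread that may be technical.

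The genes were chosen by their measured level in FPKM, the reads on a gene scaled by the gene's length and by the depth of the library. A gene was taken when its identifier was placed on a chromosome, its mean was at least 10 FPKM in each of axil, flower, leaf and stem, and its level was under 1 FPKM in each of the 3 root libraries. This gave 187 genes of the 63411 identifiers in the table. They made up 2.55% of the 7319 chromosomal genes that reached 10 FPKM in all 4 shoot tissues. The other 7132, each with at least 1 FPKM in at least 1 root library, are called the other shoot-wide genes below. Because the levels in all 5 tissues chose the genes, shoot against root is given as a description with no test. How the genes differed among the shoot tissues was not part of the choice, apart from the floor of 10 FPKM, and is tested.

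Shoot organs carry the green cells in which chloroplasts capture light and fix carbon, and their outer surface is sealed by a waxy cuticle. Roots anchor the plant and take up water and minerals, mostly in the dark, and their plastids are not green. Photosynthesis genes are the usual textbook example of genes used in shoots and little in roots, and the leaf is the main organ of photosynthesis. The table does not pair identifiers with gene names, apart from 1 that is not among the 187, so which pathways these genes serve was not analysed here and the genes are given by identifier. For the same reason the tissue labels could not be set against known marker genes.

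Library depth, worked out from the smallest steps in the FPKM table, ran from 12084975 to 14727843 reads. With so many reads, a gene 1000 nt long that received 3 of them would be listed at 0.204 to 0.248 FPKM. The 187 genes rested on 5648051 reads in the shoot libraries, and no gene had fewer than 102 reads in the 3 libraries of any shoot tissue. All 187 passed the filter on low values used for the tests. Some libraries stood apart in these genes. Over the 187 genes on the log2(FPKM + 1) scale, Axil 2 and Axil 3 had a Pearson correlation of 0.964, whereas Axil 1 reached 0.781 with Axil 2 and 0.733 with Axil 3. Axil 1 correlated with the stem libraries at a mean of 0.726, against 0.436 for Axil 2 and 0.357 for Axil 3, and over all genes tested the order was the same, at 0.851, 0.803 and 0.754. In leaf, Leaf 2 had the highest of the 3 leaf values for 67.4% of the genes, against 33.5% of the other shoot-wide genes. Each of these correlations runs over genes, not over independent samples, and is a description. What sets these libraries apart was not tested.

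The level of the group as a whole was highest in leaf. The 187 genes together took 2.29% to 3.58% of the summed FPKM in axil libraries, 3.40% to 3.58% in flower, 9.34% to 12% in leaf and 2.48% to 3.28% in stem. In root libraries they took 0.00637% to 0.00659%. The median gene stood at 31.8 FPKM in axil, 56.8 in flower, 97.4 in leaf and 43.2 in stem, as tissue means, and at 0.1 in root. The other shoot-wide genes had nearly level medians of 28.9 FPKM for axil, 26.7 for flower, 24.7 for leaf, 28 for stem and 25.1 for root. In bulk tissue, more cells that express a gene and more RNA per cell cannot be told apart.

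**Figure D1:**
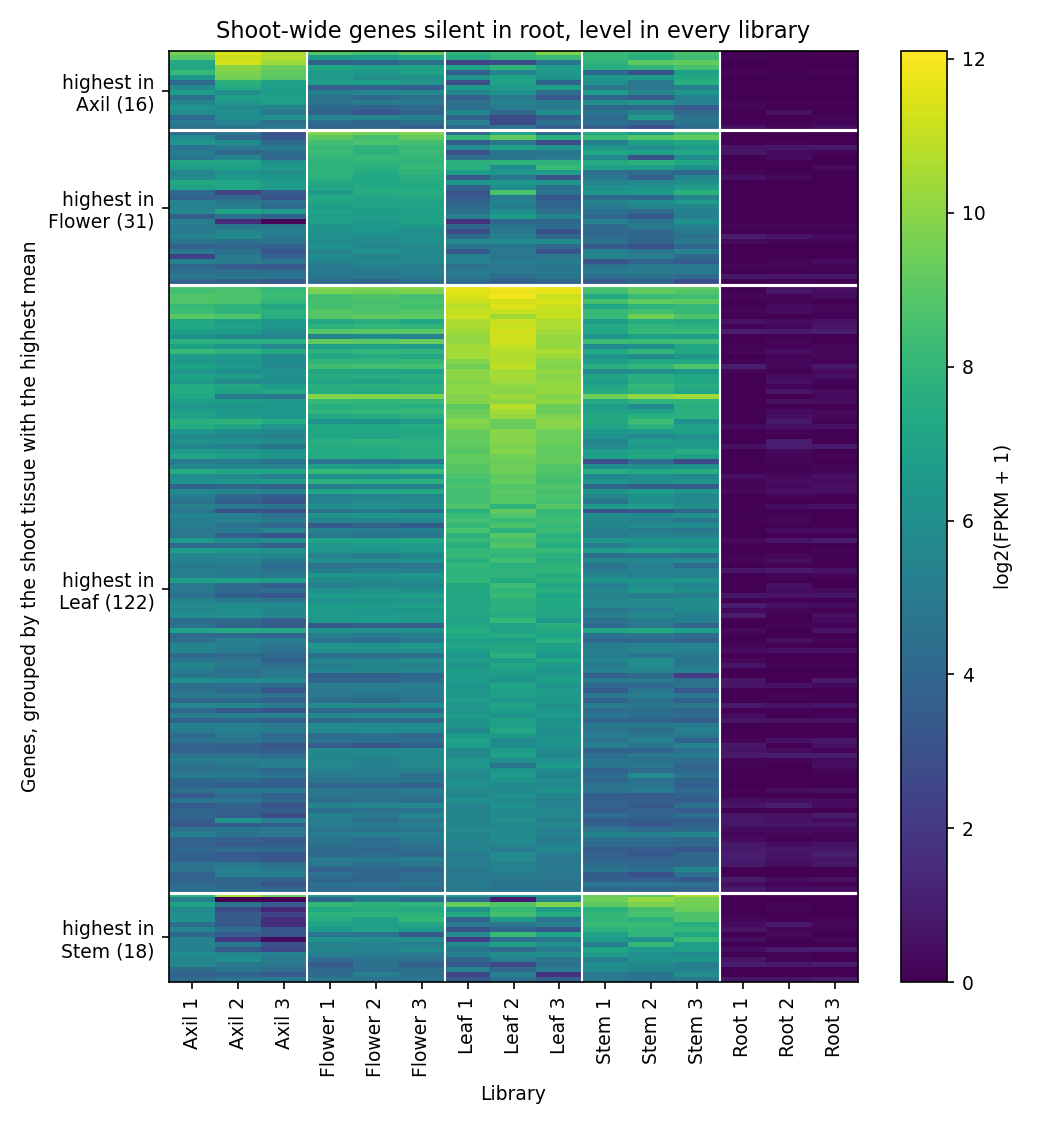
Level of each of the 187 genes (rows) in each of the 15 libraries (columns) as log2(FPKM + 1), grouped by the shoot tissue with the highest mean. The block of 122 genes highest in leaf fills most of the map, and the root columns are dark throughout because the genes were chosen for that.

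For many of the genes, root was close to the limit of detection. Of the 187 genes, 35 had 0 reads in all 3 root libraries, 48 had 1 to 3 reads in total, 45 had 4 to 10 and 59 had more than 10. The root libraries held 685, 834 and 712 reads of these genes, 2231 in all, and the most for a single gene was 110. For the 152 genes with a root read, the lowest of the 4 shoot means was a median of 229 times the pooled root level, and at the least 12.9 times. For the 35 genes with no root read, a limit of 3 reads over the 3 root libraries gives folds of at least 31.9 to at least 1617, depending on the gene's level and length. Over the 187 genes, Spearman's rho between pooled root FPKM and mean leaf FPKM was 0.0781, given as a description with both levels taken from 1 table. These limits and intervals cover counting error only, and reads of genes with near-identical or overlapping copies may be split in ways the table does not show.

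**Figure D2:**
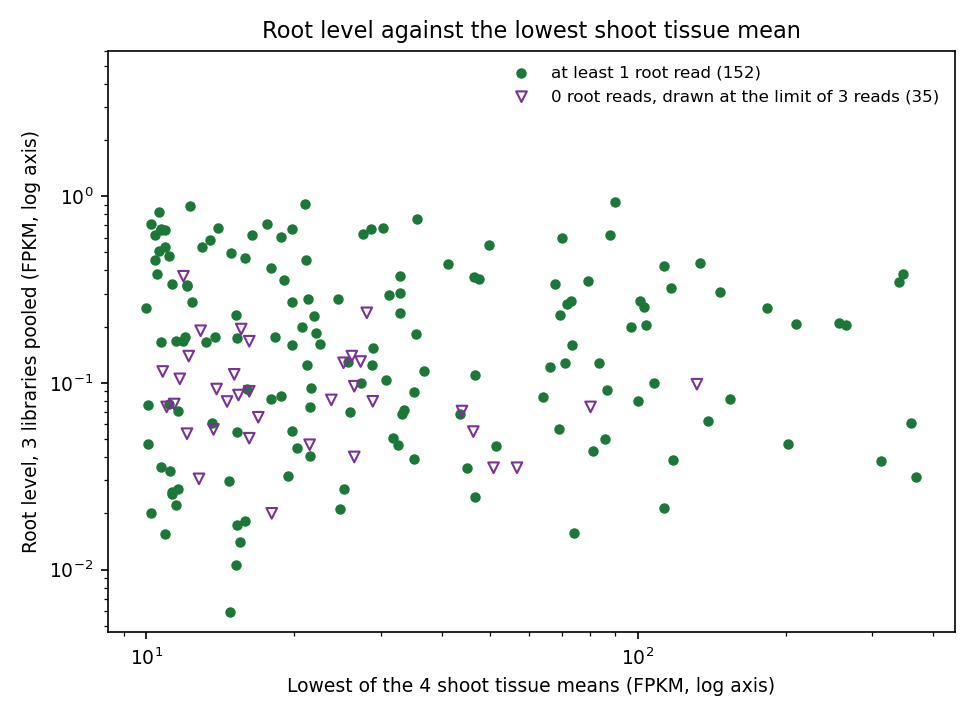
Pooled root level of each gene against the lowest of its 4 shoot tissue means, both in FPKM on log axes. Filled points are the 152 genes with at least 1 root read, and open triangles are the 35 genes with none, drawn at the level that 3 reads would give. Root levels spread below 1 FPKM at every shoot level.

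The genes with the highest floor across the shoot show how far apart root and shoot were. HannXRQ_Chr08g0232801, on chromosome 8, was measured at 514, 409 and 183 FPKM in axil, 467, 578 and 536 in flower, 2301, 1332 and 2078 in leaf, and 272, 728 and 419 in stem. It had 1 read over the 3 root libraries, so its lowest shoot mean was 11716 times the pooled root level. The exact Poisson 95% interval of that root count puts this ratio between 2103 and 462759. All leaf libraries of this gene lay above all other libraries. HannXRQ_Chr05g0160351, on chromosome 5, had 441, 392 and 247 FPKM in axil, 387, 378 and 397 in flower, 2175, 2602 and 2665 in leaf, and 381, 573 and 525 in stem. It also had 1 root read, and its leaf values again stood clear of the rest. The highest values in a single library belonged to HannXRQ_Chr08g0232881, at 4404 FPKM in Leaf 2, and to HannXRQ_Chr15g0494511, at 3689 FPKM in Leaf 2. Their leaf means were 3611 ± 690 FPKM for the first and 2864 ± 767 for the second (SD, n = 3 each). Both had root reads, 6 and 10 in total.

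The thresholds cut through a continuous range. Just inside the shoot threshold, HannXRQ_Chr01g0003341 had 7.22, 14.5 and 8.39 FPKM in leaf, its lowest shoot tissue, and HannXRQ_Chr10g0279141 had a stem mean of 10.1 FPKM. Just outside it, HannXRQ_Chr06g0164671 had a lowest shoot mean of 9.95 FPKM, in leaf, which was 6.24 without Leaf 3, and HannXRQ_Chr17g0539321 one of 9.86. At the root threshold, HannXRQ_Chr16g0527681 and HannXRQ_Chr08g0208101 were inside with highest root values of 0.999 and 0.994 FPKM. HannXRQ_Chr09g0273951 and HannXRQ_Chr12g0356971 were outside, the first at 1 FPKM in Root 2 and the second at 1.02 in Root 1, while the other root libraries of both genes stayed at or under 0.193 FPKM.

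The first tested question was whether expression was even across the shoot. It was not: 182 of the 187 genes differed among axil, flower, leaf and stem in limma's moderated F test at a Benjamini-Hochberg adjusted p under 0.05, which is 97.3%. The share called was 71.3% among all 34586 genes tested and 76.3% among the other shoot-wide genes. The ratio of the highest to the lowest shoot mean had a median of 6.15 among the 187 genes, with quartiles of 3.75 and 11.1, and a median of 1.84 among the other shoot-wide genes. It exceeded 10 for 59 genes (31.6%), against 2.01% of the other shoot-wide genes, and stayed under 2 for 7 genes (3.74%), against 58.8%.

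The most even of the 187 genes were HannXRQ_Chr16g0532141 and HannXRQ_Chr15g0485401. The first stood at 26.4 ± 0.178 FPKM in axil, 28 ± 2.11 in flower, 24.3 ± 4.34 in leaf and 19.8 ± 1.97 in stem (SD, n = 3 each), a ratio of highest to lowest of 1.41. On the log2 scale its flower minus stem was 0.48 ± 0.13 (SE; limma adjusted p = 0.0145). Its axil minus stem was 0.4 ± 0.13 (SE; limma adjusted p = 0.0292), and its remaining pairs had limma adjusted p of 0.123 or more. The second stood at 19.8 ± 0.556 FPKM in axil, 31.1 ± 3.37 in flower, 30.5 ± 1.68 in leaf and 31.0 ± 2.04 in stem (SD, n = 3 each), so its flower, leaf and stem means lay within their spread, and axil minus flower was -0.62 ± 0.11 on the log2 scale (SE; limma adjusted p = 0.000627). Over the root libraries the first had 36 reads and the second 3.

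Leaf most often had the highest mean and axil most often the lowest. The mean was highest in axil for 16 genes (8.56%), in flower for 31 (16.6%), in leaf for 122 (65.2%) and in stem for 18 (9.63%). Among the other shoot-wide genes, the order was different: 35.9% were highest in axil, 22.4% in flower, 16.6% in leaf and 25.1% in stem. The mean was lowest in axil for 94 of the 187 genes (50.3%), against 16.5% of the other shoot-wide genes. It was lowest in leaf for 18 (9.63%), against 39.9%. The shares of the other shoot-wide genes came from FPKM as deposited and were not recomputed after rescaling the libraries.

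**Figure D3:**
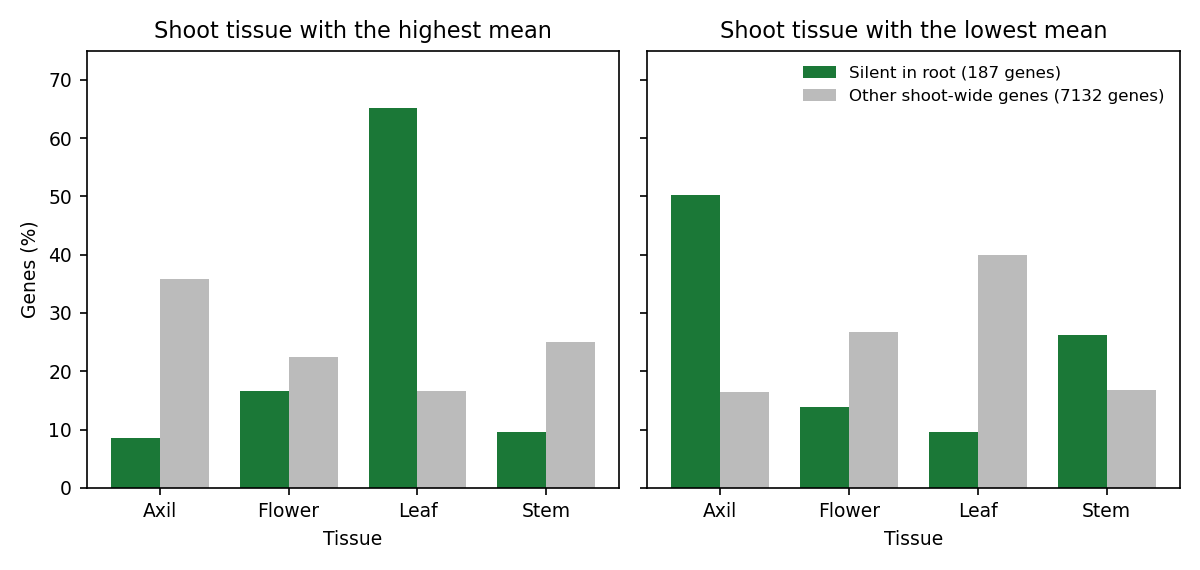
Share of genes, in percent, whose mean was highest (left) and lowest (right) in each of the 4 shoot tissues, for the 187 genes silent in root (green) and the 7132 other shoot-wide genes (grey). Leaf is highest for 65.2% of the genes silent in root and for 16.6% of the others.

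A stricter reading asks for a call against each of the 3 other shoot tissues, at an adjusted p under 0.05 and a log2 difference of at least 1. By that rule 84 genes were higher in leaf (44.9%), where the share is 4.02% among all genes tested and 2.47% among the other shoot-wide genes. Flower led in 10 genes (5.35%), against 5.05% of all genes tested and 1.82% of the other shoot-wide genes. Axil led in 5 (2.67%), against 3.38% and 1.47%, and stem in 2 (1.07%), against 3.37% and 1.22%. These 3 shares lay near those of all genes tested or below them. In 107 genes (57.2%) the 3 leaf libraries all lay above the 9 other shoot libraries, as in 7.22% of all genes tested and 6.72% of the other shoot-wide genes. Flower libraries did so in 18 genes (9.63%), against 11% and 8.17%, axil libraries in 3 (1.60%), against 12.5% and 15.2%, and stem libraries in 5 (2.67%), against 7.39% and 7.47%. Within the 122 genes highest in leaf, the leaf mean was a median of 3.27 times the next highest tissue, and 86 of them exceeded 2 times.

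Pairs of shoot tissues were then compared, each as the first tissue minus the second as log2(FPKM + 1), in which differences between low values come out too small. The 6 comparisons share libraries and are given side by side. Axil was lower than leaf in 121 of the 187 genes (64.7%), against 7.88% of all genes tested and 6.44% of the other shoot-wide genes. It was higher in 18 (9.63%), against 10.4% and 7%, a count of 11 without Leaf 1 or without Leaf 3 and of 11 with median-of-ratios scaling. Flower was lower than leaf in 91 genes (48.7%), against 10.9% and 7.28%, and higher in 22 (11.8%), against 15.5% and 9.89%. Leaf was higher than stem in 121 genes (64.7%), against 10% of all genes tested and 7.39% of the other shoot-wide genes, and lower in 18 (9.63%), against 14.6% and 9.79%. Towards leaf the shares of the 187 genes called were thus several times those of genes in general. Away from leaf the shares called were below those of all genes tested and near those of the other shoot-wide genes. Separation without overlap away from leaf was rarer in the 187 genes. The 3 axil libraries lay above the 3 leaf libraries in 6.42%, against 32.5% of all genes tested and 38.8% of the other shoot-wide genes. Leaf lay below stem in this way in 9.09%, against 29.2% and 32.3%. Flower above leaf was likewise less frequent than in both sets. The median difference over the 187 genes was -1.85 for axil minus leaf, -0.98 for flower minus leaf and 1.64 for leaf minus stem, beside 0.20, 0.08 and -0.10 over all genes tested.

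In the pairs without leaf the medians lay closer to 0. Axil was lower than flower in 75 genes (40.1%), against 13.6% of all genes tested and 9.23% of the other shoot-wide genes, and higher in 18 (9.63%), against 13.3% and 9.69%, a count of 11 without Axil 2. The median difference was -0.78, beside 0.07 over all genes tested. Axil was lower than stem in 36 genes (19.3%), against 10.7% and 6.93%, and higher in 19 (10.2%), against 9.50% and 5.31%, with a median of -0.27 beside 0.07. Flower was higher than stem in 43 genes (23.0%), against 8.60% and 4.56%, and lower in 14 (7.49%), against 8.98% and 6%, with a median of 0.41 beside 0.

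**Figure D4:**
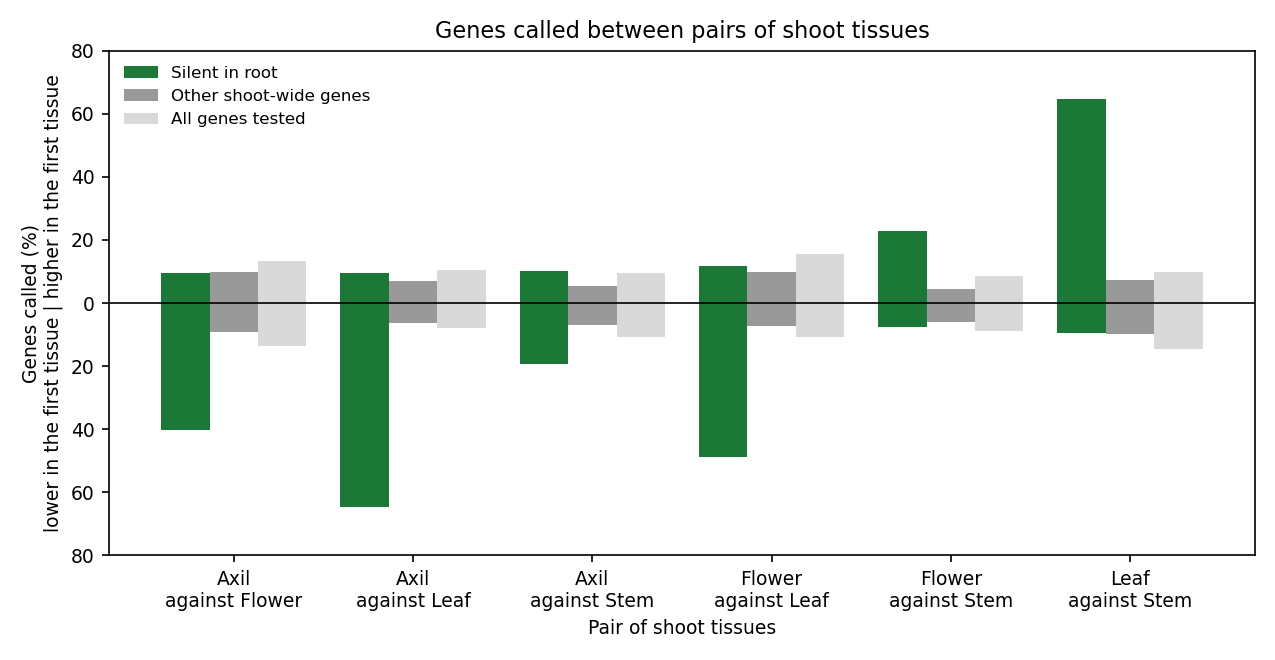
Share of genes, in percent, called higher (upward) or lower (downward) in the first tissue of each pair by limma, for the 187 genes silent in root (green), the other shoot-wide genes (dark grey) and all genes tested (light grey). The green bars point towards leaf in its 3 pairs, with 64.7% called lower in axil than leaf and 64.7% called higher in leaf than stem.

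Single genes show how sharp the leaf lead could be. HannXRQ_Chr11g0324441, on chromosome 11, was measured at 14.1, 16.3 and 11.7 FPKM in axil, 34.1, 35.8 and 37.7 in flower, 393, 450 and 436 in leaf, and 15.8, 11.5 and 9.93 in stem. Axil minus leaf came to -4.84 ± 0.16 on the log2 scale (SE; limma adjusted p = 9.93e-10), and leaf minus stem to 5.02 ± 0.16 (SE; limma adjusted p = 7.4e-10). No library of another tissue came within reach of the leaf values, and axil and stem overlapped. This gene was not fully absent from root, with 25 reads and at most 0.412 FPKM.

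HannXRQ_Chr10g0312801, on chromosome 10, had 551, 664 and 610 FPKM in leaf, against 6.83, 17.3 and 6.09 in stem (log2 difference 5.92 ± 0.27, SE; limma adjusted p = 8.01e-09). Its axil values of 30.8, 32.1 and 24.5 FPKM and its flower values of 24.0, 25.7 and 28.6 lay between and overlapped each other. Its stem mean of 10.1 FPKM was 6.46 without Stem 2, under the threshold that chose it. HannXRQ_Chr10g0287201, also on chromosome 10 and with no root read, had 22.5, 11.7 and 7.52 FPKM in axil, against 335, 489 and 355 in leaf (-4.83 ± 0.36, SE; limma adjusted p = 6.42e-07).

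Between flower and leaf, HannXRQ_Chr08g0234291 stood at 41.8, 58.8 and 39.3 FPKM in flower, against 1143, 2391 and 1158 in leaf (log2 difference -4.97 ± 0.28, SE; limma adjusted p = 2.14e-08). HannXRQ_Chr04g0120621, on chromosome 4, stood at 9.70, 13.5 and 10.8 FPKM in flower, against 278, 426 and 270 in leaf (-4.70 ± 0.27, SE; limma adjusted p = 2.02e-08). In both genes, Leaf 2 gave the highest value and the 2 other leaf libraries were close together.

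The genes highest in flower ran against this pattern. HannXRQ_Chr09g0276071, on chromosome 9, had 16.8, 22.3 and 6.85 FPKM in axil, against 941, 765 and 836 in flower (log2 difference -5.83 ± 0.66, SE; limma adjusted p = 1.35e-05). Its leaf values were 16.3, 127 and 17.1 FPKM, so the leaf mean of 53.5 was 16.7 without Leaf 2, and flower exceeded leaf by 4.62 ± 0.66 (SE; limma adjusted p = 7.79e-05). HannXRQ_Chr08g0207871 had 358, 404 and 365 FPKM in flower, against 11.3, 26.9 and 5.89 in leaf (4.82 ± 0.60, SE; limma adjusted p = 2.7e-05), and its leaf mean of 14.7 was 8.62 without Leaf 2. For both genes the 3 flower libraries lay above all others.

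Against stem, HannXRQ_Chr12g0365341, on chromosome 12, had 229, 172 and 233 FPKM in flower, against 20.9, 18.3 and 14.7 in stem (log2 difference 3.49 ± 0.18, SE; limma adjusted p = 1.33e-08). HannXRQ_Chr06g0181511, on chromosome 6, had 251, 276 and 267 FPKM in flower, against 54.9, 7.60 and 57.8 in stem (3.12 ± 0.57, SE; limma adjusted p = 0.00103). Its stem libraries were uneven, with Stem 2 far below Stem 1 and Stem 3, while its flower libraries were close together.

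Of the 16 genes highest in axil, the most abundant was HannXRQ_Chr16g0506961, on chromosome 16, with 779, 2843 and 1630 FPKM in axil, against 298, 247 and 393 in stem (log2 difference 2.32 ± 0.48, SE; limma adjusted p = 0.00219). Its axil libraries all lay above its stem libraries but overlapped its leaf libraries, of which Leaf 3 reached 907 FPKM. In axil 3 genes passed a mean of 1000 FPKM, and the 10 most abundant of the 187 held 47.0% of their summed FPKM there, against 28.9% in flower, 34.5% in leaf and 32.1% in stem.

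HannXRQ_Chr13g0419721, on chromosome 13, had the widest range over the shoot, a ratio of highest to lowest mean of 116. It was measured at 158, 2625 and 1291 FPKM in axil, 13.3, 15.3 and 21.8 in flower, 4.16, 5.61 and 25.5 in leaf, and 230, 534 and 591 in stem, with no root read. Axil exceeded flower by 5.54 ± 0.84 (SE; limma adjusted p = 0.000149) and leaf by 6.40 ± 0.84 (SE; limma adjusted p = 7.2e-05) on the log2 scale. Flower minus stem was -4.58 ± 0.84 (SE; limma adjusted p = 0.000978), and leaf minus stem -5.44 ± 0.84 (SE; limma adjusted p = 0.000175). Its axil mean of 1358 FPKM was 725 without Axil 2, and its leaf mean of 11.7 was 4.89 without Leaf 3, so its place among the 187 rested on Leaf 3. Axil and stem overlapped.

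A neighbour of it by identifier, HannXRQ_Chr13g0419741, had 515, 2236 and 1638 FPKM in axil, against 103, 107 and 144 in flower (log2 difference 3.40 ± 0.42, SE; limma adjusted p = 2.9e-05). HannXRQ_Chr03g0089201, on chromosome 3, had 279, 874 and 575 FPKM in axil, against 11.2, 40.9 and 91.0 in leaf (3.85 ± 0.84, SE; limma adjusted p = 0.00315) and 16.5, 7.22 and 116 in stem (4.34 ± 0.84, SE; limma adjusted p = 0.00143). Its means were 26 FPKM in leaf without Leaf 3 and 11.9 in stem without Stem 3. In all of these genes Axil 1 was the lowest of the 3 axil libraries.

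Stem led most sharply in HannXRQ_Chr04g0112221, on chromosome 4. It had 38.8, 0 and 0 FPKM in axil, 16.1, 34.7 and 18.3 in flower, 17.5, 0.942 and 40.8 in leaf, and 697, 1187 and 775 in stem, with no root read. The log2 differences from stem were -7.98 ± 1.25 in axil (SE; limma adjusted p = 0.000333), -5.24 ± 1.25 in flower (limma adjusted p = 0.00621) and -6.24 ± 1.25 in leaf (limma adjusted p = 0.00134). Its axil mean came from Axil 1 alone, and its leaf mean of 19.7 FPKM was 9.20 without Leaf 3, so it met the rule for axil and leaf through single libraries. HannXRQ_Chr02g0048821, on chromosome 2, also rested on Axil 1, at 35.7, 1.91 and 0.163 FPKM, against 114, 88.0 and 127 in flower (-4.46 ± 0.98, SE; limma adjusted p = 0.00225). Leaving out Axil 1 puts its axil level at 1.04. Its leaf mean of 11.2 FPKM, from 2.12, 15.8 and 15.7, was also close to the threshold.

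Such dependence on single libraries was not rare. With 1 library left out, 40 of the 187 genes were lost at least once, and 17 were lost without Axil 1. A library under 10 FPKM is a wider measure and does not by itself make a gene depend on 1 library. In 62 of the 187 genes at least 1 shoot library was under 10 FPKM, and in 3 it was under 1 FPKM, while 125 genes had every shoot library at 10 FPKM or more. The libraries under 10 FPKM fell in axil for 35 genes, in flower for 5, in leaf for 18 and in stem for 20. The rule was also applied with 1 library missing, for every library in the set, and 147 of the 187 genes were chosen each time. Leaving out a root library can only add genes under this rule, so all losses came from leaving out shoot libraries. The median coefficient of variation between the 3 libraries of a tissue was 25.3% in axil, 9.14% in flower, 25.7% in leaf and 23.9% in stem, against 12.7%, 7.95%, 16.4% and 17.2% in the other shoot-wide genes.

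The genes were spread over all 17 chromosomes, as the chromosome number in each identifier gives it, from 4 genes on chromosome 7 to 22 on chromosome 17. Chromosome 17 held 11.8% of the genes and 6.56% of all chromosomal identifiers, and chromosome 10 held 20 genes, 10.7% against 7.38%. Their lengths, as implied by the FPKM steps, ran from 207 to 5316 nt with a median of 1276, against a median of 1647 nt for the other shoot-wide genes. Counting places in the order of identifiers on a chromosome, 22 of the 187 genes (11.8%) lay within 5 places of another and formed 8 groups. The same held for 77.8% of the other shoot-wide genes, a list of 7132 against 187, and the lists differ too much in length for these shares to be compared. The identifiers are taken as ordered, and distances in bases were not used.

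The largest of these groups, singled out after its values were seen, held 6 genes among 12 identifiers on chromosome 17, from HannXRQ_Chr17g0536621 to HannXRQ_Chr17g0536731. All 6 were short, between 325 and 600 nt, and together they had 2 reads in the root libraries. HannXRQ_Chr17g0536681 had 53.5, 6.05 and 1.43 FPKM in axil, against 209, 385 and 642 in stem (log2 difference -5.26 ± 0.85, SE; limma adjusted p = 0.000391). Its axil mean of 20.3 FPKM came to 3.74 without Axil 1. Also named after its values were seen, HannXRQ_Chr17g0536711 had 117, 27 and 9.97 FPKM in axil, against 528, 853 and 742 in stem, with an axil mean of 51.5, or 18.5 without Axil 1. In all 6 genes Axil 1 gave the highest axil value and Axil 3 the lowest. Each end of this order, counted separately, was also common among the 187 genes. Axil 1 was highest in 111 of them (59.4%), against 42.1% of the other shoot-wide genes. Axil 3 was lowest in 130 of the 187, a count that was not made for the other shoot-wide genes. The other 6 of the 12 identifiers, which did not meet the rule, had at most 0.852 FPKM in any library. Whether the 6 genes of the group are near-identical copies that share reads was not tested.

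**Figure D5:**
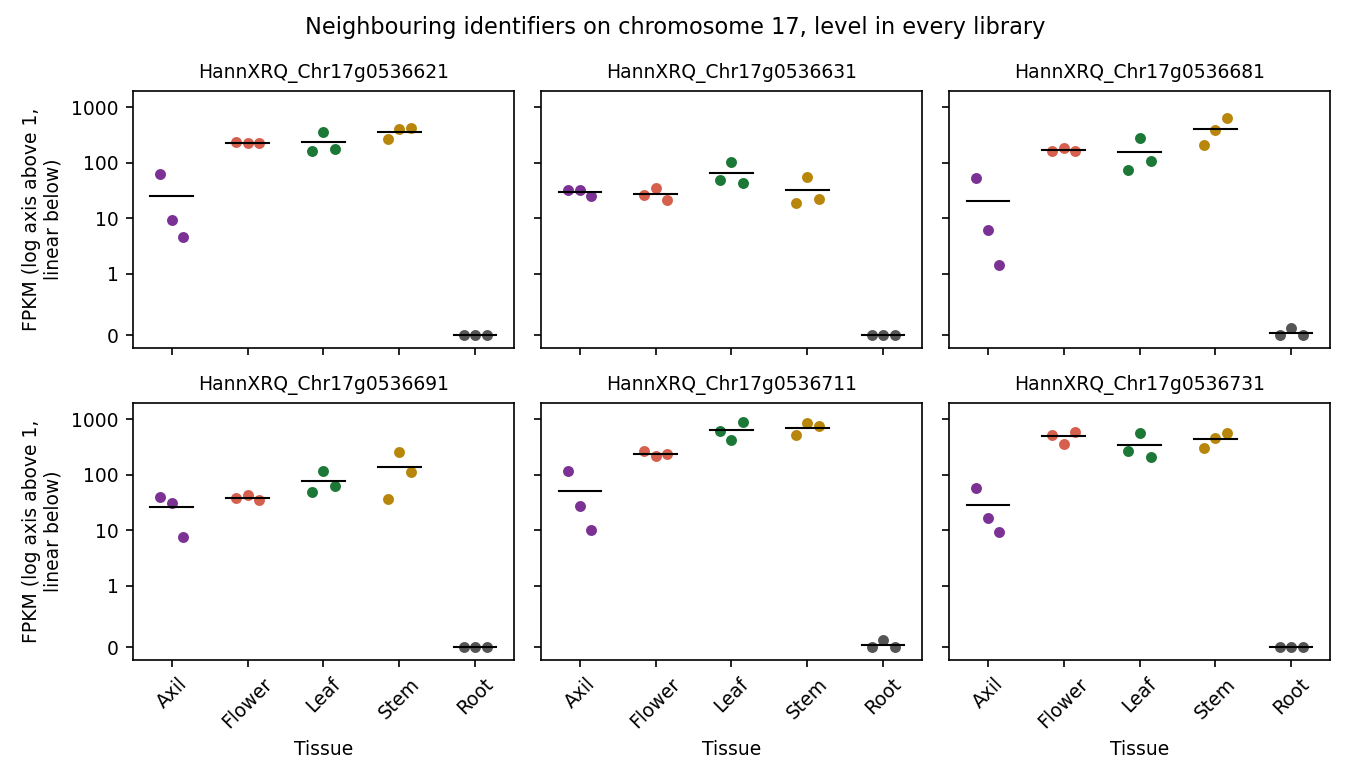
FPKM of the 6 neighbouring genes on chromosome 17 in each library (points) with the mean of each tissue (black bars), on an axis that is logarithmic above 1 and linear below. Axil 1 is the leftmost axil point and the highest of the 3 in every panel, as it was for 59.4% of the 187 genes. All root points lie at or near 0.

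A second group lay on chromosome 1, with 3 genes among 4 identifiers. The neighbours HannXRQ_Chr01g0029491 and HannXRQ_Chr01g0029501 had no root read. For HannXRQ_Chr01g0029501 the lowest shoot mean was at least 1341-fold higher than the limit of 3 reads over the root libraries. HannXRQ_Chr01g0029501 was measured at 145, 980 and 647 FPKM in axil, 149, 125 and 120 in flower, 124, 234 and 100 in leaf, and 184, 238 and 384 in stem. HannXRQ_Chr01g0029491 was measured at 17.6, 220 and 122 FPKM in axil and at 6.24, 119 and 13.8 in leaf, so its leaf mean of 46.3 was 10 without Leaf 2. Its axil mean of 120 FPKM was the highest of the 4 shoot means, but was 69.7 without Axil 2, below its means of 98.8 in flower and 97.7 in stem. The stem mean was in turn 49.7 without Stem 3. For HannXRQ_Chr01g0029491, axil minus flower was -0.31 ± 1.01 on the log2 scale (SE; limma adjusted p = 0.831), so these tissues were not called different. HannXRQ_Chr01g0029501 was called higher in axil than in flower (1.78 ± 0.54, SE; limma adjusted p = 0.0162) and in leaf (1.66 ± 0.54, SE; limma adjusted p = 0.0289). Its axil minus stem was not called (0.82 ± 0.54, SE; limma adjusted p = 0.255). Axil 1 was the lowest axil library in both genes and overlapped the other tissues.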

How the data were processed

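Poly(A) RNA from 5 tissues, 3 libraries each, was sequenced with adaptors that carry molecular identifiers, per the labels' protocols. The authors deposited 1 FPKM value per gene and library. The submitters' processing notes name HTSeq 0.6.1, and aligner, build and annotation versions were not given in the sources used here. Unnamed columns, 16 in number, were left out. With 0 identifiers matched in the RefSeq table, no names, sequences or coordinates were used, and gene lists by product name were not analysed here.

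Whole reads were solved from the FPKM steps in all 50567 rows above 0 (tolerance 1e-06 plus 5e-07 of the reads). The smallest whole numbers that fit were taken, so a row with 1 value above 0 is always solved, as 1 read. Implied lengths were whole within 0.05 nt in 100% of the 34513 rows with reads enough for this check, and in 100% of the 187 genes. The fit took log2(FPKM + 1) of the 34586 genes that reached 1 FPKM in 3 libraries or more, over all 15 libraries, using limma 3.58.1 (R 4.3.3, moderated with a mean trend, tested on simulated data), with Benjamini-Hochberg adjustment over all of these genes. Python 3.11.15, pandas 2.3.3, SciPy 1.17.1 and matplotlib 3.10.9 were used otherwise.

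The genes, lists and tests were chosen with earlier results of these data known. Named genes are the 2 with the highest lowest shoot mean, the 2 largest called differences per pair and direction without overlap between libraries, 2 on each side of each threshold, the 2 with the most even shoot means, a run of adjacent identifiers (6 runs of 2 tied for the longest, and the one whose lowest shoot mean was highest was taken), the 2 with the widest spread inside a tissue and the 2 highest single values. Alternatives varied the pseudocount, filter, scaling, variance model, libraries fitted, replicate block, rule thresholds and libraries left out.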

Additional observations from a re-analysis of the deposited data

How the results depend on the processing

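The number of genes chosen depended most on its own thresholds: 338 with a shoot mean of at least 5 FPKM and 103 with at least 20, against 187. It was 140 with root under 0.5 FPKM, 255 under 2 FPKM, 125 with each shoot library at 10 FPKM or more, and 172 to 206 when 1 library was left out. Of 550 recomputed counts, 544 stayed within 1.5 times. The genes higher in axil than leaf, 18, were 11 with median-of-ratios scaling, 11 without Leaf 1 or Leaf 3, and 11 to 23 when 1 library was left out. The genes higher in axil than flower, 18, were 11 without Axil 2 and 11 to 18 over all libraries. Genes highest in leaf numbered 119 to 124 when 1 shoot library was left out, and those called higher in leaf than in each other shoot tissue 80 to 89. All 600 recomputations of the 24 named differences kept their direction and call, though these genes were taken for large differences. Median-of-ratios scaling shifted the median of all genes by up to -0.202, for axil minus leaf, where the median of the 187 was -2.15. Deviations from the tissue means were correlated between libraries of different tissues with the same number, 1 to 3. The 30 correlations had a median of -0.0334 and ran from -0.337 to 0.196. A library was most like one with its own number in 1 of 15 cases. Such correlations cannot tell whether libraries with the same number share a plant or a batch. With a replicate block, 139 genes differed between axil and leaf and 92 between axil and flower, and no count moved by over 1.5 times. The counts by direction, the leaf counts and the means without single libraries were alternatives chosen after the data were seen. Many of the 187 genes had 0 to a few root reads, which limits what can be said of their order in root, while 59 had more than 10.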

Other observations

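Among the 5723 identifiers without a chromosome, 1 met the same levels in shoot and root, and it was highest in leaf.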
